A study of Mus musculus with 11 samples.

Results

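The genes described here make the enzymes and chaperones that hydroxylate the prolines of procollagen and fold its chains in the endoplasmic reticulum. They were taken as the rows of the merged count table whose gene symbol was P4ha1, P4ha2, P4ha3, P4hb, P3h1, P3h3, P3h4, Crtap, Serpinh1 or Ppib. Each symbol matched 1 row, so that the group holds 10 of the 22600 genes in the table, and all 10 had enough reads to be tested.

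The samples were whole distal tibiae, 4 from Control and 7 from BMAd-DTA mice, each sequenced as 1 strand-specific mRNA library. Control mice (genotype BMAd-WT) and BMAd-DTA mice were 24 weeks old, of C57BL6/SJL background, fed ad libitum without further treatment. According to the methods, the mice of both groups carried Osterix-FLPo and the FLPo-dependent Adipoq-Cre allele FAC, an allele pair associated with low circulating adiponectin, and only BMAd-DTA mice expressed diphtheria toxin A from a ROSA-DTA allele after Cre recombination in BM adipocytes. Recombination in this model is incomplete and reaches a small subset of marrow stromal cells. The question was how loss of BM adipocytes changes gene expression in a bone site rich in these cells.

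Collagen chains are made with many prolines, and hydroxylation of these residues on carbon 4 keeps the triple helix stable at body temperature. The enzyme is a tetramer of catalytic alpha subunits, encoded by P4ha1, P4ha2 or P4ha3, and beta subunits, encoded by P4hb, which is also protein disulfide isomerase. A rarer hydroxylation on carbon 3 is made by a complex of P3H1, its partner CRTAP and the proline isomerase cyclophilin B, the product of Ppib. P3H3 and P3H4 form another complex with lysyl hydroxylase 1, and HSP47, the product of Serpinh1, holds the finished helix until it leaves the endoplasmic reticulum. In bone, loss of P3H1, CRTAP, cyclophilin B or HSP47 causes recessive forms of osteogenesis imperfecta.

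The merged table held 16969529 to 18637663 read pairs per library on genes, and levels are given as CPM, the count scaled to a common library size with TMM factors. Osteoblast and osteocyte markers were present in every library, with a summed level of 799.7 to 1653 CPM in Controls and 1669 to 3112 CPM in BMAd-DTA mice. Control replicate 1 stood apart in bone collagen, since Col1a1, which encodes a chain of type I collagen, was at 1245 CPM there and at 5588 to 6226 CPM in the other Controls. It was not apart in collagen alone. Its summed osteoblast and osteocyte (799.7 CPM), plasma cell (915.7 CPM) and B cell markers (398.1 CPM) were the lowest of the Controls. The other Controls were at 1133 to 1653, 1916 to 4870 and 614.8 to 906 CPM. Its erythroid markers were the highest, at 6428 CPM against 3162 to 5928 CPM. Summed skeletal muscle markers ran from 21.9 to 1505 CPM in Controls and from 25.2 to 1158 CPM in BMAd-DTA mice, so that muscle RNA varied widely within both groups. Between 13810 and 20260 counts per library fell on Xist, the RNA of the inactive X chromosome. The Y chromosome genes looked for had no row in the merged table, where the smallest row total was 11 counts. This is the pattern of female mice in all libraries, although the legends speak of males. Sex is not part of the labels.

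Short stretches of promoter are shown for alpha and beta subunits of prolyl 4-hydroxylase and for the collagen chaperone. They were picked because they hold the letters ACGTG, the core of the site through which oxygen-regulated transcription factors bind. P4ha1 and P4ha2 are known targets of that response, and whether it acts on any of these genes here was not tested. Capitals mark ACGTG or its complement CACGT, and each run is written 5′ to 3′ along the strand of the gene, from RefSeq on GRCm38.p6. The P4ha2 run lies before a RefSeq start that is inside the span of the gene in GENCODE M21, and the other 3 lie outside their genes.
P4ha1 (chr10:59323269-59323295, + strand): gtgacagagcgCACGTagcgagggctg
P4ha2 (chr11:54100835-54100861, + strand): gtgcatcgcatACGTGcagcgcgtggc
P4hb (chr11:120573294-120573320, - strand): ccgcccactgcCACGTtcgacggagaa
Serpinh1 (chr7:99353395-99353421, - strand): ccctgcttttcCACGTccaggaccgcg
For 9 of the 10 genes 10 promoters of 300 bases were found, 2 of them for P3h1. ACGTG on either strand was in 6 of these 10 promoters, those of P4ha1, P4ha2, P4hb, Ppib and Serpinh1 and 1 of the 2 of P3h1, and in 19.6% of all 32851 promoters of that length. The promoters of the 9 genes had a GC content of 54.7% to 70.3%, where the median of all promoters was 52.7%, and the part of base composition in these counts was not tested. The endoplasmic reticulum stress element, searched on both strands, was in none of them and in 0.119% of all promoters, and TGACGTGG, which contains ACGTG, was in none of them and in 0.676%. TGACGTCA was likewise in none of them and in 1.79% of all promoters. The GC box GGGCGG was in 9 of the 10 promoters and in 35.7% of all promoters, GCGTG in 6 and in 32.4%, CCAAT in 4 and in 37.4%, and TATAAA in 2 and in 13.6%.

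All 10 genes had a higher fitted level in BMAd-DTA mice, where 50.4% of all tested genes did, and the size of the difference fell into a graded order. It was largest for Serpinh1, P3h1, P4ha3, P4ha2 and P3h4, with log2 fold changes of 0.56 to 0.67, lower for Crtap, P3h3 and P4ha1, with 0.25 to 0.41, and smallest for Ppib and P4hb, with 0.13 and 0.10. In the quasi-likelihood test of edgeR, with p values adjusted after Benjamini and Hochberg over 16496 genes, 0 of the 10 reached an adjusted p below 0.05, where 0.0788% of all genes did, 0.0727% with a higher and 0.00606% with a lower level. At an unadjusted p under 0.05, 8 of the 10 were higher in that test and 0 lower, against 7.89% and 8.53% of all genes. DESeq2 gave an adjusted p under 0.05 for 5 of them, P4ha2, P3h1, P3h4, Crtap and Serpinh1, against 5.42% of all genes in either direction and 2.78% with a higher level. The median log2 fold change of the 10 genes was 0.48, and that of all tested genes was 0.0018.

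**Figure D1:**
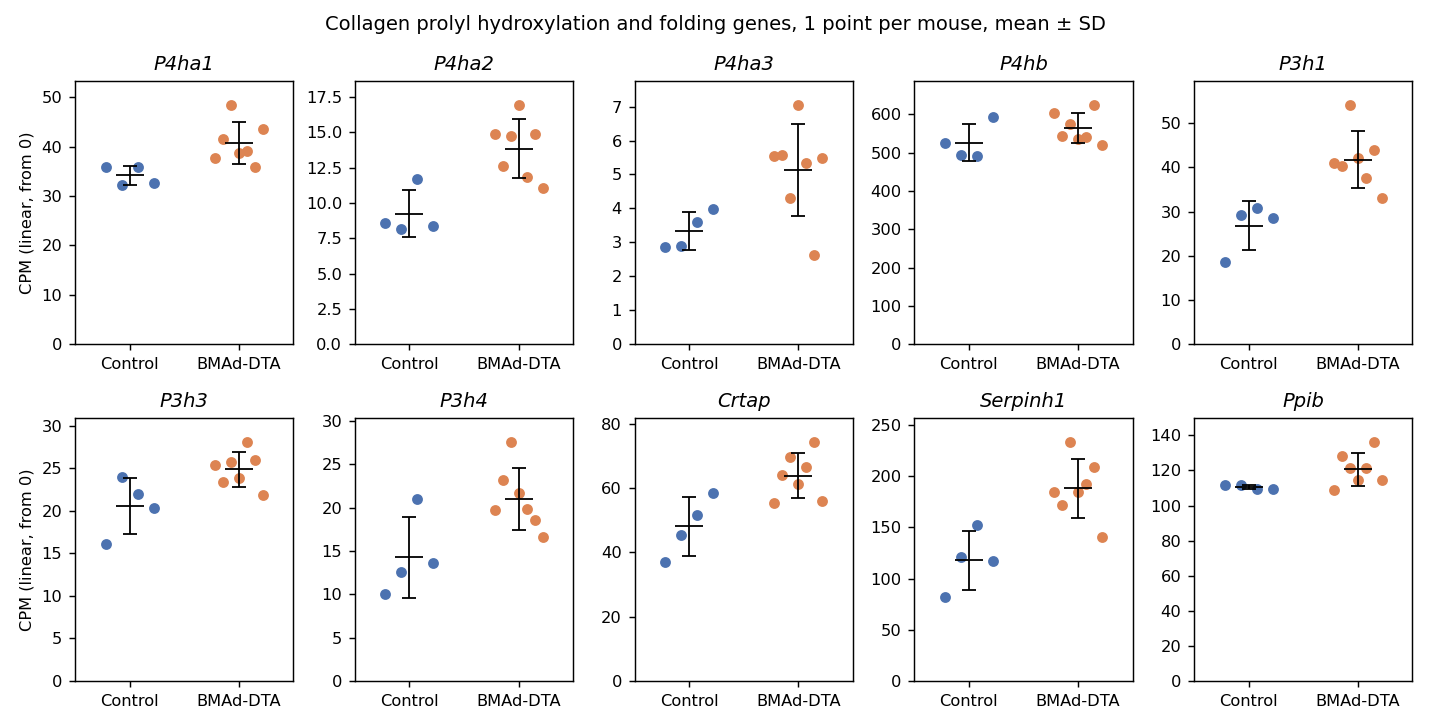
CPM of each gene on a linear axis from 0, with 1 point per mouse and the mean ± SD of each group (Control, n = 4, and BMAd-DTA, n = 7). The groups do not overlap for P3h1, and they overlap most for P4hb, at 492.2 to 594.3 CPM in Controls and 519.5 to 624.8 CPM in BMAd-DTA mice.

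Serpinh1 (ENSMUSG00000070436.12, chromosome 7, 99345376 to 99353239 of GRCm38, - strand), which encodes HSP47, a chaperone specific to collagen, had the largest log2 fold change of the group with all mice. Its level was 81.6, 120.6, 152.4 and 117.1 CPM in Control replicates 1 to 4, and 140.7 CPM at the lowest, 184.8 CPM at the median and 233.8 CPM at the highest in BMAd-DTA mice. Control replicate 1 was the lowest of all mice, and all BMAd-DTA mice but replicate 7 (6 of 7) exceeded the highest Control. The Control mean was 118 ± 29 CPM (SD, n = 4) and the BMAd-DTA mean 188 ± 29.1 CPM (SD, n = 7), for 0.67 as log2 fold change (standard error, SE, 0.16, adjusted p = 0.0724 by edgeR and 0.00157 in DESeq2). Without Control replicate 1 the log2 fold change was 0.53 (adjusted p = 0.234 by edgeR), and without Control replicate 3 it was 0.82 (adjusted p = 0.039). The first place depended on single mice. Without Control replicate 1, P4ha2 (0.56) and P4ha3 (0.55) were above Serpinh1. P4ha3 was also above it without Control replicate 4 (0.72 against 0.67) and without BMAd-DTA replicate 3 (0.66 against 0.61) or 6 (0.73 against 0.65).

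The prolyl 3-hydroxylase P3h1 (ENSMUSG00000028641.16, chromosome 4, 119232915 to 119248975, + strand) was the only gene of the group that separated the genotypes. Its level was 18.7, 29.2, 30.8 and 28.6 CPM in Control replicates 1 to 4, and 33 CPM at the lowest, 40.9 CPM at the median and 54.1 CPM at the highest in BMAd-DTA mice. Every BMAd-DTA mouse was above every Control, which was so for 1.78% of all tested genes. The log2 fold change was 0.64 (SE 0.15, adjusted p = 0.072 by edgeR and 0.00212 in DESeq2). Without Control replicate 1 it was 0.50, with an adjusted p of 0.234 by edgeR.
Crtap (ENSMUSG00000032431.6, chromosome 9, 114375134 to 114390675, - strand), whose product is the partner without catalytic activity in the same complex, was at 37, 45.4, 51.5 and 58.4 CPM in Control replicates 1 to 4. In BMAd-DTA mice its level was 55.3 CPM at the lowest, 64.1 CPM at the median and 74.5 CPM at the highest. The groups overlapped through Control replicate 4, and 5 of the 7 BMAd-DTA mice exceeded every Control. The log2 fold change was 0.41 (SE 0.12, adjusted p = 0.114 by edgeR and 0.0272 in DESeq2). It was 0.30 without Control replicate 1 (adjusted p = 0.363 by edgeR) and 0.52 without Control replicate 4 (adjusted p = 0.062 by edgeR).
Ppib (ENSMUSG00000032383.7, chromosome 9, 66060222 to 66066623, + strand) was the steadiest gene of the group in Controls, at 111.5, 111.7, 109.6 and 109.4 CPM. In BMAd-DTA mice it was at 108.7 CPM at the lowest, 121.2 CPM at the median and 136.4 CPM at the highest. BMAd-DTA replicate 1 was below every Control and the other 6 were above every Control, with a log2 fold change of 0.13 (SE 0.063, adjusted p = 0.337 by edgeR). The opposite strand of Ppib, where Snx22 overlaps, held 11.9% of the stranded counts there, and these pairs are not in the counts used.

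P3h4 (ENSMUSG00000006931.15, chromosome 11, 100408456 to 100414836, - strand), a homologue of CRTAP that acts in lysyl hydroxylation, was at 10.1, 12.5, 21 and 13.6 CPM in Control replicates 1 to 4. Its level in BMAd-DTA mice was 16.6 CPM at the lowest, 19.8 CPM at the median and 27.6 CPM at the highest. Control replicate 3 lay inside the range of the BMAd-DTA mice, and 3 of the 7 BMAd-DTA mice exceeded every Control. The log2 fold change was 0.56 (SE 0.18, adjusted p = 0.152 by edgeR and 0.0463 in DESeq2). It was 0.80 without Control replicate 3 (adjusted p = 0.0393 by edgeR) and 0.42 without Control replicate 1 (adjusted p = 0.431 by edgeR).
Its enzyme partner P3h3 (ENSMUSG00000023191.9, chromosome 6, 124841089 to 124857752, - strand) differed less. It was at 16.1, 24, 21.9 and 20.3 CPM in Control replicates 1 to 4, and at 21.8 CPM at the lowest, 25.3 CPM at the median and 28.1 CPM at the highest in BMAd-DTA mice. The groups overlapped, with 4 of the 7 BMAd-DTA mice above every Control and a log2 fold change of 0.27 (SE 0.11, adjusted p = 0.215 by edgeR). Without Control replicate 1 the log2 fold change of P3h3 was 0.17.
Plod1, which encodes the lysyl hydroxylase of this complex, had a log2 fold change of 0.24 (SE 0.098, adjusted p = 0.249 by edgeR), close in size to P3h3. P3h2, the remaining collagen prolyl 3-hydroxylase and one known mainly for basement membrane collagen, was fitted lower with depletion. It was at 28.5 to 35.4 CPM in Controls and 21 to 32.1 CPM in BMAd-DTA mice, with a log2 fold change of -0.16 (SE 0.11, adjusted p = 0.53 by edgeR), and 3 of the 7 BMAd-DTA mice were below every Control.

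Among the catalytic alpha subunits of prolyl 4-hydroxylase, the less abundant isoforms had the larger log2 fold changes, an order that was not itself tested. P4ha1 (ENSMUSG00000019916.14, chromosome 10, 59323296 to 59373304, + strand), the widely expressed isoform, was at 35.9, 32.3, 35.9 and 32.6 CPM in Control replicates 1 to 4. Its level in BMAd-DTA mice was 35.9 CPM at the lowest, 39.1 CPM at the median and 48.5 CPM at the highest, and 6 of the 7 exceeded every Control while the lowest was level with the highest Control, for a log2 fold change of 0.25 (SE 0.085, adjusted p = 0.155 by edgeR and 0.101 in DESeq2).
P4ha2 (ENSMUSG00000018906.14, chromosome 11, 54100095 to 54131665, + strand), the isoform known from cartilage and bone cells, was at 8.6, 8.19, 11.7 and 8.4 CPM in Control replicates 1 to 4. In BMAd-DTA mice it was at 11.1 CPM at the lowest, 14.8 CPM at the median and 16.9 CPM at the highest. Control replicate 3 overlapped with BMAd-DTA replicate 7, and the other 6 BMAd-DTA mice exceeded every Control. The log2 fold change was 0.59 (SE 0.14, adjusted p = 0.0798 by edgeR and 0.00579 in DESeq2). It was 0.73 without Control replicate 3 (adjusted p = 0.039 by edgeR) and 0.56 without Control replicate 1 (adjusted p = 0.255 by edgeR).
P4ha3 (ENSMUSG00000051048.17, chromosome 7, 100285520 to 100319699, + strand) was the gene with the fewest reads, with 45 to 129 counts per library. It was at 2.87, 2.89, 3.6 and 3.99 CPM in Control replicates 1 to 4, and at 2.64 CPM at the lowest, 5.49 CPM at the median and 7.05 CPM at the highest in BMAd-DTA mice. BMAd-DTA replicate 6 was the lowest of all 11 mice and the other 6 exceeded every Control, for a log2 fold change of 0.62 (SE 0.23, adjusted p = 0.196 by edgeR and 0.0994 in DESeq2), the largest SE of the group.
P4hb (ENSMUSG00000025130.11, chromosome 11, 120560298 to 120573253, - strand), the beta subunit that all cells with a secretory pathway use, was at 524.8, 493.1, 492.2 and 594.3 CPM in Control replicates 1 to 4. In BMAd-DTA mice it was at 519.5 CPM at the lowest, 542.5 CPM at the median and 624.8 CPM at the highest. Only 2 of the 7 BMAd-DTA mice were above every Control, and the log2 fold change of 0.10 (SE 0.075, adjusted p = 0.559 by edgeR) was the smallest of the group. Without Control replicate 4 it was 0.16 (unadjusted p = 0.0485, adjusted p = 0.312 by edgeR), above the 0.12 of Ppib in that setting.

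Levels of different genes were compared per kilobase of annotated exon, taken as the union of the exons of all transcripts of a gene. That length can exceed the transcript expressed, so the order and the shares below also depend on the annotation. In Controls the order was P4hb at 184 ± 16.7 CPM per kb (SD, n = 4), Serpinh1 at 48.3 ± 11.9, Ppib at 33.4 ± 0.362, Crtap at 27.1 ± 5.12, P4ha1 at 8.31 ± 0.482, P3h1 at 6.97 ± 1.43, P3h4 at 6.56 ± 2.15, P3h3 at 5.24 ± 0.844, P4ha2 at 1.48 ± 0.266 and P4ha3 at 1.06 ± 0.177 CPM per kb. The ranges over the 4 Controls overlapped between Serpinh1 and Ppib, and between each pair of neighbours from P4ha1 down to P3h3, so that these places in the order are not separated by the spread between mice. In BMAd-DTA mice P3h1, at 10.9 ± 1.69 CPM per kb (SD, n = 7), had a higher mean than P4ha1 at 9.9 ± 1.03 CPM per kb, and their ranges overlapped. Crtap and Ppib were at 36.1 ± 3.94 and 36.5 ± 2.82 CPM per kb in BMAd-DTA mice. Of the alpha subunit transcripts per length, P4ha1 made up 76.6% ± 2.32 in Controls (SD, n = 4) and 71.9% ± 3.6 in BMAd-DTA mice (SD, n = 7).

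Ratios between partners were formed within each library, which removes the scaling of libraries, and the groups were compared by exact permutation tests over all 330 splits of the 11 mice, two-sided, with adjustment over 4 ratios. The P4ha2 share of the alpha subunits was 13.6% ± 1.62 in Controls and 16.2% ± 2.7 in BMAd-DTA mice (exact permutation p = 0.109, adjusted p = 0.109). The log2 ratio of P4hb over the summed alpha subunits was 3.84 ± 0.19 in BMAd-DTA mice and 4.08 ± 0.18 in Controls, a difference of -0.24, and 5 of the 7 BMAd-DTA mice were below every Control (exact permutation p = 0.0697, adjusted p = 0.109). P3h1 over Crtap was 0.23 higher on the log2 scale (exact permutation p = 0.0848, adjusted p = 0.109). With all mice, none of these differences passed 0.05 in the exact permutation test. The unadjusted exact permutation p of P4hb over the alpha subunits was 0.0143 without BMAd-DTA replicate 6 and 0.0417 without Control replicate 3, and that of the P4ha2 share was 0.0429 without BMAd-DTA replicate 7.
Serpinh1 over Col1a1, chaperone over its main substrate, went the other way from Serpinh1 itself. The log2 ratio per length was -2.51, -4.11, -3.93 and -4.21 in Control replicates 1 to 4 and -3.94 at the highest and -5.13 at the lowest in BMAd-DTA mice. BMAd-DTA minus Control was -0.83 on the log2 scale (exact permutation p = 0.0333, adjusted p = 0.109), and the ratio of 5 of the 7 BMAd-DTA mice was under that of each Control. Without Control replicate 1, whose Col1a1 was low, the difference was -0.43 (exact permutation p = 0.142).

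**Figure D2:**
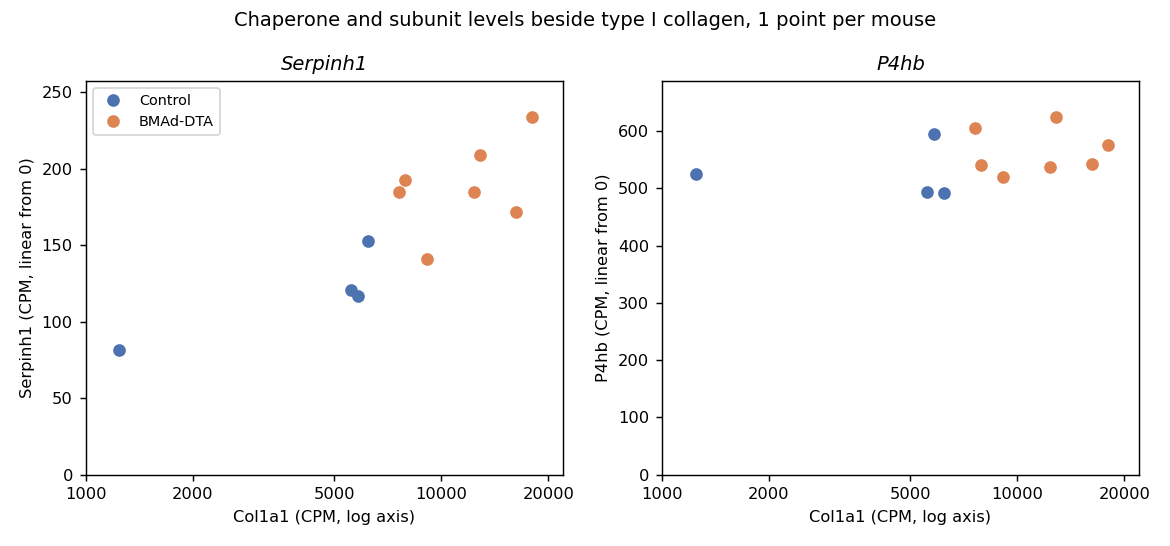
Serpinh1 (left) and P4hb (right) in CPM on linear axes from 0 against Col1a1 in CPM on a log axis, with 1 point per mouse. Col1a1 spans 1245 to 18037 CPM and Serpinh1 81.6 to 233.8 CPM, while P4hb stays between 492.2 and 624.8 CPM in the same mice.

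The fibrillar collagens, the substrates, had larger log2 fold changes than most of the 10 genes, a difference that was not tested. Col1a1 averaged 4721 ± 2332 CPM in Controls (SD, n = 4) against 12016 ± 4066 CPM after depletion (SD, n = 7), with a log2 fold change of 1.35 (SE 0.39, adjusted p = 0.115 by edgeR), and Col1a2 had 1.26 (SE 0.40, adjusted p = 0.142 by edgeR). That Control mean includes replicate 1 at 1245 CPM, where the other Controls were at 5588 to 6226 CPM. No log2 fold change without that mouse is given for the collagens, so its part in their larger values is open. All 10 fibrillar collagen genes had a higher fitted level, from 0.21 for Col3a1 to 1.35 for Col1a1 with a median of 1.06, and 0 passed the adjusted threshold of 0.05 by edgeR, 9 an unadjusted p of 0.05 and 5 the adjusted threshold in DESeq2. Counts in this and the following lists stand beside shares over all tested genes. By edgeR 7.89% were higher and 8.53% lower at an unadjusted p under 0.05, and 0.0788% passed after adjustment. DESeq2 called 5.42%, and 2.78% with a higher level.
Of 7 genes for lysyl hydroxylation and its partners, 5 were higher, from -0.05 for Plod3 to 0.92 for Fkbp10, which encodes a collagen-binding proline isomerase. None passed the adjusted threshold of 0.05 by edgeR, 3 had an unadjusted p under 0.05 with a higher level, and DESeq2 called 2. Of 12 genes for procollagen export, 9 were higher, from -0.42 for Klhl12 to 1.04 for Creb3l1, a transcription factor of collagen-secreting cells. In that list 0 passed by edgeR after adjustment, while 5 higher and 1 lower had an unadjusted p under 0.05, and DESeq2 called 4 higher and 1 lower.
General folding genes of the endoplasmic reticulum were spread around 0. Of 22 tested, 12 were lower and 10 higher with depletion, the median log2 fold change being -0.03, from -0.15 for the lectin chaperone Canx to 0.83 for Fkbp11. None passed the adjusted threshold of 0.05 by edgeR, 5 higher and 1 lower had an unadjusted p under 0.05, and DESeq2 called 5 higher. The 5 higher genes, named after their values were seen, were Ppic, Fkbp7, Fkbp9, Fkbp11 and Fkbp14, with log2 fold changes of 0.45 to 0.83. They belong to the proline isomerase families, as does Fkbp2 of the same list, which was at -0.08 (adjusted p = 0.657 by edgeR) with 5 of the 7 BMAd-DTA mice below every Control.
Of 11 genes of the unfolded protein response, 7 were higher and 4 lower, with a median of 0.058, from -0.49 for Trib3 to 0.19 for Herpud1. None passed the adjusted threshold of 0.05 by edgeR or DESeq2, and 1 had an unadjusted p under 0.05. Of 15 oxygen-regulated genes tested, 10 were higher, with a median of 0.074, from -0.18 for Epas1 to 0.51 for Car9. By edgeR 0 passed after adjustment and 2 before it, and DESeq2 called 1. Of 9 genes for proline supply and ascorbate uptake, which provide substrate and cofactor, 6 were higher, from -0.11 for Aldh18a1 to 0.63 for Pycr1, with 0 past the adjusted threshold by edgeR, 2 before adjustment and 1 in DESeq2.

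**Figure D3:**
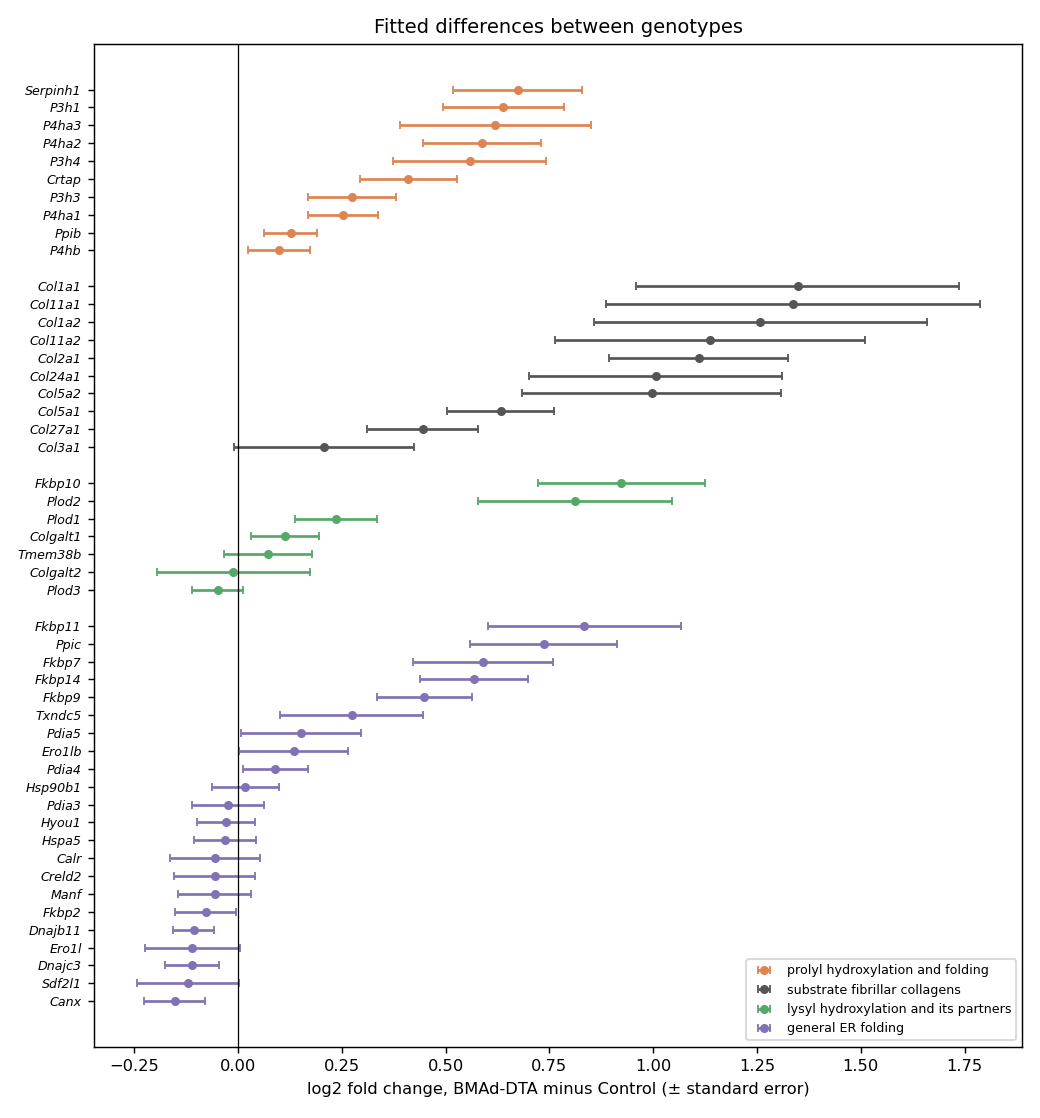
Log2 fold change of BMAd-DTA against Control mice with its standard error, for the 10 genes described and every tested gene of 3 neighbouring lists. The prolyl hydroxylation and folding genes run from 0.10 to 0.67, the fibrillar collagens reach 1.35, and most general folding genes lie near 0.

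Markers of collagen-making cells, and of some other cell types, also had higher levels in BMAd-DTA mice. Summed osteoblast and osteocyte markers were above every Control in all 7 BMAd-DTA mice, and all 11 had a higher fitted level, at a median of 0.80 in log2 fold change, and 1 of them, Alpl, was past the adjusted threshold of 0.05 by edgeR. Summed chondrocyte markers were 453 to 726.3 CPM in Controls and 784.2 to 972.2 CPM in BMAd-DTA mice, and 7 of 8 were higher, with a median log2 fold change of 0.17. Most of the difference in this sum was Col2a1, also counted among the fibrillar collagens, at a mean of 216.8 CPM in Controls and 468 CPM in BMAd-DTA mice, while Acan, Comp, Col10a1 and Sox9 had log2 fold changes of 0.12 to 0.19 and unadjusted p of 0.208 to 0.545 by edgeR. Summed tendon and fibroblast markers were 788.3 to 1129 CPM in Controls and 930.1 to 1448 CPM in BMAd-DTA mice, with all 9 higher. All 7 plasma cell markers were higher too, with wide ranges of 915.7 to 4870 CPM in Controls and 1884 to 5058 CPM in BMAd-DTA mice. So were all 7 osteoclast markers, at a median log2 fold change of 1.12, and all 7 B cell markers, at 0.53. All adipocyte, erythroid, muscle and endothelial markers tested were fitted lower, at medians of -0.99, -0.48, -0.93 and -0.088, as were 5 of 9 neutrophil markers. Summed adipocyte markers overlapped between the groups, at 1018.5 to 1849 CPM in Controls and 504.9 to 1239 CPM in BMAd-DTA mice. Of the 7 BMAd-DTA mice, 4 were below every Control in this sum. The part of these cell types in the differences was not tested, and in RNA of whole bone a change in the number of a cell type and a change in RNA per cell cannot be told apart. With a skeletal muscle score as a covariate, the log2 fold change was 0.66 for Serpinh1, 0.61 for P3h1, 0.63 for P4ha2 and 0.09 for P4hb. It was 0.57 for P4ha3, 0.51 for P3h4, 0.38 for Crtap, 0.26 for P3h3, 0.24 for P4ha1 and 0.12 for Ppib. In that fit 0 of the 10 genes passed, with an adjusted p by edgeR of 0.139 for Serpinh1, 0.138 for P3h1 and 0.130 for P4ha2.

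The genes also differed in how they varied from mouse to mouse within a group. Likeness was measured as Pearson's r of log2 CPM over the 11 libraries after removal of the group means, a description in which shared libraries and tissue makeup enter. Serpinh1 was most like P3h1 (r = 0.93), P3h4 (r = 0.82), P3h3 (r = 0.79) and Crtap (r = 0.73) within the group. P4ha1, P4ha3, P4hb and Ppib had r of -0.02, -0.15, 0.16 and 0.19 with Serpinh1. Without Control replicate 1, a setting chosen after seeing the data, r with Serpinh1 was 0.86 for P3h1, 0.74 for P3h4, 0.59 for P3h3 and 0.51 for Crtap, while that of P4ha2 went from 0.61 to 0.70. Among the other pairs, r went from 0.71 to 0.37 for P3h1 and P3h3, from 0.56 to 0.13 for P3h3 and Crtap, from 0.53 to 0.28 for P3h4 and Crtap and from 0.45 to 0.08 for P3h3 and P3h4 without that mouse.
Col1a1 had r of 0.87 with P3h1, 0.76 with Crtap, 0.74 with Serpinh1 and 0.72 with P3h4, against 0.06 with P4ha1, 0.05 with P4ha3 and 0.02 with P4hb. Without Control replicate 1 these were 0.69 for P3h1, 0.49 for Crtap, 0.43 for Serpinh1 and 0.59 for P3h4. Such r were not particular to Col1a1. Over all 11 mice the mean of the plasma cell markers had r of 0.70 with P3h1 and 0.64 with Serpinh1. The chondrocyte mean had r of 0.87 with Crtap, and the osteoblast and osteocyte mean 0.86 with P3h1 and 0.88 with P3h4. The tendon and fibroblast mean had r of -0.33 with P3h1 and -0.20 with Serpinh1. The nearest genes below are given over all 11 mice, Control replicate 1 included, and have the highest r of all genes compared, so high values are partly a product of selection. Among 10366 genes with a mean of at least 10 CPM, P3h1 was most like Fkbp10 (r = 0.96). Bmp1 (r = 0.95), Col5a1 and Atp6v0c (each r = 0.94) were also among its 5 nearest genes. The genes most like Serpinh1 were Mecr (r = 0.94), Atp6v0c, Kdelr3, Adamts2 and Zfp467 (r = 0.93 each), where Kdelr3 encodes a receptor that returns proteins to the endoplasmic reticulum and Adamts2 a proteinase that trims procollagen. The 5 genes most like P4hb were Brk1, Anxa5, Nkapd1, Txndc12 and Phgdh, with r of 0.87 to 0.92, and those most like P4ha1 were Ing1, Mfap1a, Rcan2, Cd3e and Zfp141, with r of 0.86 to 0.94. P4ha2 was most like Ostf1, Tyrobp, Spsb1, Kank2 and Fam102a, with r of 0.90 to 0.95. P3h4 was most like Maged1, Mdfi, Kifc3, Cpe and Id3, with r of 0.93 to 0.95, and Crtap like Drg2, Gas6, Tgds, Laptm4a and Zbtb48, with r of 0.87 to 0.91. P3h3 was most like Tle2, Ighv1-7, Mob3c, Srpx and Bgn, with r of 0.86 to 0.96, where Ighv1-7 is uncertain as 1 of many similar immunoglobulin genes. The genes most like Ppib were Fastk, Tbc1d17, Imp3, Zdhhc12 and Mfng, with r of 0.90 to 0.92, and those most like P4ha3 were Gm4759, Lmbrd2, Prdm15, 9930111J21Rik2 and Itpr2, with r of 0.89 to 0.91.

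**Figure D4:**
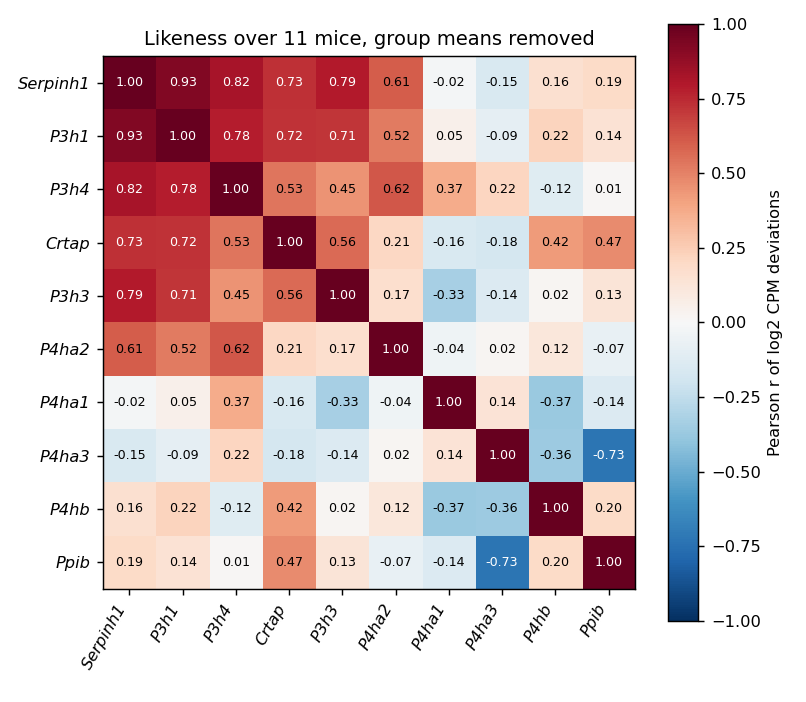
Pearson's r between each pair of the 10 genes over 11 mice, from log2 CPM after subtraction of each group's mean, with red for positive and blue for negative r. Serpinh1, P3h1, P3h4, Crtap and P3h3 have r of 0.45 to 0.93 with each other over all mice and 0.08 to 0.86 without Control replicate 1, and the lowest r, -0.73, is between P4ha3 and Ppib.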

How the data were processed

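RNA of whole distal tibiae from 4 Control and 7 BMAd-DTA mice was analysed. The authors checked reads with FastQC 0.11.9, aligned them to mm10 with STAR and deposited raw counts of read pairs per gene in per-library files and in 1 merged file. The annotation release is not given in the sources used here. The merged table equals the strand-specific column of the per-library counts, multimapping pairs are not in it, and unmapped, unassigned and ambiguous pairs were left out. GENCODE M21 on GRCm38 matched 99.9% of the identifiers and gave positions and exon lengths.

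Differential expression was computed with edgeR 4.0.16 under R 4.3.3 (filterByExpr, TMM, glmQLFit and glmQLFTest, two-sided) with genotype as the only term, and p values were adjusted over 16496 genes. The standard error is the log2 fold change over the square root of F. DESeq2 1.42.0 and limma-voom 3.58.1, other scalings, filters, counting columns, a muscle covariate and each mouse left out in turn were alternatives. In simulated counts in which 200 genes carried a log2 difference of 1, edgeR recovered 68.5% to 72% of them over 16228 to 16231 genes. It made 7 to 10 false calls. The criteria for passing this check were changed after its first run. The 10 genes had smaller log2 fold changes, of 0.10 to 0.67, so this recovery does not describe them. The labels do not say whether mice shared litters or cages, and libraries of the same group differed by more than counting error (chi-square per gene of 18.3 or more).

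The genes and lists were chosen with earlier results of these data known. Named were the 10 genes, P3h2, Plod1, Col1a1, Col1a2, the genes at both ends of each pathway list, and, for each of the 10, the 5 genes most alike in mouse-to-mouse variation, of which 1 is not reported here. Outside this rule Alpl, Ppic, Fkbp2, Fkbp7, Fkbp9, Fkbp14, Col2a1, Acan, Comp, Col10a1, Sox9 and Xist were named after their values were seen. Motifs were chosen after values were seen. Endothelial (6 genes, median log2 fold change -0.088), neutrophil (9 genes, -0.037), erythroid (6 genes, -0.48), B cell (7 genes, 0.53), osteoclast (7 genes, 1.12), adipocyte (11 genes, -0.99) and muscle markers (14 genes, -0.93) were also read.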

Additional observations from a re-analysis of the deposited data

Results flagged for a closer look

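In 28 groups of values examined, 3 had a mouse far from the rest of its group, where chance gives about 1 in 20. P4ha2 in Control replicate 3 was at 11.7 CPM, and the next Control was at 8.6 CPM. In the same mouse the P4ha2 share of the alpha subunit transcripts was 16% (15.97%), next to 13% (13.002%) in the nearest Control. The log2 ratio of Serpinh1 over Col1a1 was -2.51 in Control replicate 1, where the nearest Control was at -3.93.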

How the results depend on the processing

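Every log2 fold change of the 10 genes kept its positive sign under all 20 alternatives. The tool moved the calls most, since DESeq2 called 5 of the 10 genes and 845 of all genes, where edgeR called 0 and 13. Over all genes limma-voom and RLE scaling gave 20 each and the muscle covariate 3. Leaving out single mice, the genes of the group that passed numbered 0 to 3, the 3 being P4ha2, P3h4 and Serpinh1 without Control replicate 3, and all genes that passed 0 to 292. In the same settings the difference in P4ha2 share ran from 2.04 to 3.47 percentage points, in P4hb over alpha subunits from -0.31 to -0.17 on the log2 scale, in P3h1 over Crtap from 0.17 to 0.30 and in Serpinh1 over Col1a1 from -1.002 to -0.43. The last had an unadjusted exact p of 0.05 or more without Control replicate 1 or 3 or BMAd-DTA replicate 3, 4, 6 or 7. The cause was not tested. No paired analysis was possible because the labels give no replicate numbers shared between groups. P4ha3 had the fewest reads, 45 to 129 counts per library, and its SE went from 0.23 to 0.17 without BMAd-DTA replicate 6 (log2 fold change 0.73, adjusted p = 0.111 by edgeR).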
